A study of Mus musculus with 12 samples.

Results

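Rtl1 and the 9 miRNA genes around it on mouse chromosome 12 were followed through small RNA-seq libraries of embryonic stem cells (ESCs). The 10 features were chosen by symbol and position out of 32101 features in the table, of which 1577 are annotated as miRNAs. The choice did not use their levels, but earlier results of these data were known when it was made. The 10 are Rtl1, 5 miRNAs on the strand opposite to it (Mir431, Mir433, Mir127, Mir434 and Mir136) and 4 miRNAs between Meg3 and Rtl1 (Mir673, Mir337, Mir540 and Mir665). The 12 libraries fall into 6 from wild-type ESCs (WT, labelled Wildtype), 2 from Dnmt1 KO ESCs (labelled Dnmt1 -/-) and 4 from Dicer/Dnmt1 KO ESCs (labelled Dicer/Dnmt1 -/-), all with the background label E14. Dnmt1 encodes the enzyme that copies DNA methylation to the new strand at replication, and Dicer encodes the ribonuclease that cuts hairpin precursors into mature miRNAs. Titles end in a letter A or B, preceded in WT and Dicer/Dnmt1 KO by a number. The titles of the libraries called WT 2A and WT 2B here lack the WT found in those of the other wild-type libraries. Libraries of a genotype that share the number are called a culture here, a word the labels do not use, which gives 3 such pairs in WT, 1 in Dnmt1 KO (whose titles have no number) and 2 in Dicer/Dnmt1 KO. The design text speaks of technical replicates without saying which libraries they are. The p-values below then measure the spread between these libraries only, which may be technical. The labels give no day after gene deletion. According to the methods of the study, Dnmt1 was deleted in a conditional line with Cre, and the lines lacking Dicer were edited from that line and grown from single cells. Whether the WT libraries come from its uninduced cells is not labelled. Line and genotype therefore cannot be told apart in the comparisons with WT, nor between the knockouts, where Dnmt1 KO is a single pair of libraries.

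These genes lie in the Dlk1-Dio3 imprinted region, where the copies inherited from mother and father are expressed differently under the control of a DNA-methylated element. On the maternal copy, long noncoding RNAs and a large series of miRNAs are made from the plus strand. On the paternal copy, protein-coding genes including Rtl1 are expressed. Rtl1 derives from a retrotransposon and is known for its part in the placenta and in fetal muscle. The 5 miRNAs opposite to it are fully complementary to its messenger RNA and are known to direct its cleavage. Levels are given in RPM, reads per 1000000 reads of the library, and as whole reads recovered from the deposited values.

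The mature sequences below come from RefSeq, whose table is placed on GRCm38.p6, and are shown for the 6 miRNAs with enough reads for a test, since the deposited file has a single value per hairpin and does not separate the 5p from the 3p arm. All 9 miRNAs were matched there, with 18 mature arms. Capitals mark the seed, bases 2 to 8 from the 5′ end.
miR-127-5p: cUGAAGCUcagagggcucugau
miR-127-3p: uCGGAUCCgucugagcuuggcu
miR-434-5p: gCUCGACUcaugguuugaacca
miR-434-3p: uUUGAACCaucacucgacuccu
miR-136-5p: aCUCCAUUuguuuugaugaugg
miR-136-3p: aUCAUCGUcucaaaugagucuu
miR-431-5p: uGUCUUGCaggccgucaugca
miR-431-3p: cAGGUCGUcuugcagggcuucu
miR-673-5p: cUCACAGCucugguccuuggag
miR-673-3p: uCCGGGGCugaguucugugcacc
miR-540-5p: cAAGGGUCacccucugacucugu
miR-540-3p: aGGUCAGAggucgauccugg

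No seed was shared among the 18 arms, and 16 of them had a seed found in no other of the 1738 mature mouse miRNAs of the table. The exceptions were miR-673-5p, which shares its seed with miR-6985-3p, and miR-540-3p, which shares its seed with miR-6915-5p. Each of the 18 arms was found in NCBIM37, the genome build of the files, inside its own hairpin and at no other place on either strand. A read that matches a full arm exactly therefore has a single possible origin in the genome.

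In NCBIM37 the 4 miRNAs between Meg3 and Rtl1 lie on the plus strand of chromosome 12, Mir673 at chr12:110810200-110810290, Mir337 at chr12:110824000-110824096, Mir540 at chr12:110824281-110824364 and Mir665 at chr12:110824524-110824617. Rtl1 lies on the minus strand at chr12:110827404-110838540 and has 2 exons, of which exon 2 at chr12:110827404-110833698 holds the whole coding sequence of 5232 bases. All 10 arms of the 5 antisense miRNAs face that coding sequence. In the direction of Rtl1 transcription they come in the order Mir136 (chr12:110833527-110833608), Mir434 (chr12:110832716-110832809), Mir127 (chr12:110831042-110831138), Mir433 (chr12:110829925-110830048) and Mir431 (chr12:110828657-110828747). The stretches of the Rtl1 coding strand opposite the 3p arms of the most abundant pair are shown with the bases that face the seed in capitals.
Rtl1 opposite miR-127-3p: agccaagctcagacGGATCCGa
Rtl1 opposite miR-434-3p: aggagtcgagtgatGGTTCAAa
The first of these begins at base 2495 of the coding sequence (chr12:110831098-110831119) and the second at base 818 (chr12:110832775-110832796).

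**Figure D1:**
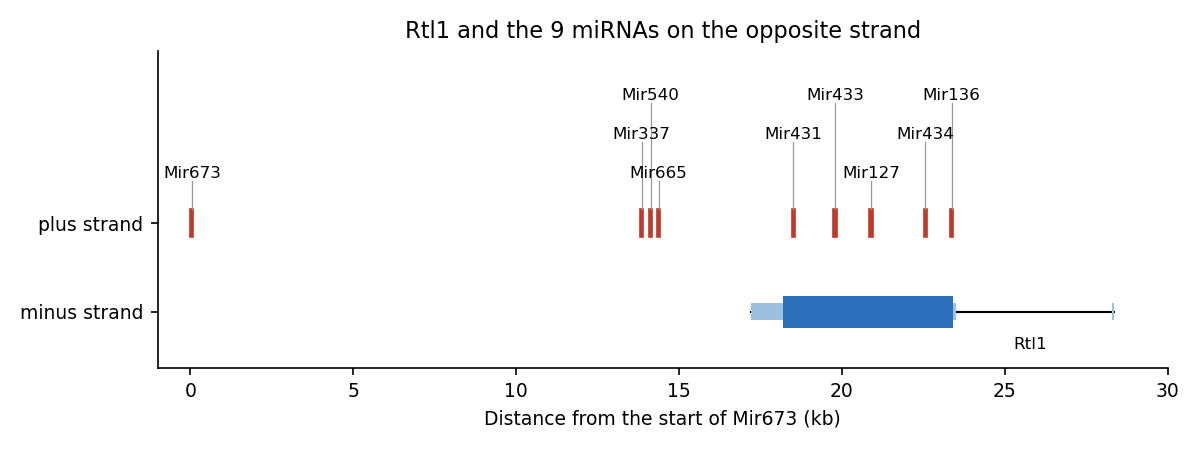
Map of the 10 features, with distance from the start of Mir673 in kb on the horizontal axis and the strand on the vertical axis. Red bars are the miRNA hairpins, the dark blue bar is the Rtl1 coding sequence, pale blue bars are the rest of its exons and the line is its intron, and the 5 antisense miRNAs all sit over the coding sequence.

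Library reads ranged from 8710 in Dicer/Dnmt1 KO 1B to 245184 in WT 1A, so 1 read was worth 114.81 RPM in the shallowest and 4.08 RPM in the deepest library. With no read seen, a true value of up to 3 reads cannot be told from 0, and this limit is 3.93 RPM over the 6 WT libraries together, 17.1 RPM over the 2 Dnmt1 KO libraries and 12.1 RPM over the 4 Dicer/Dnmt1 KO libraries. These limits and the intervals on shares and ratios cover counting error only, since the reads carry no molecular identifiers. Fragments of the deleted genes' own transcripts did not check the genotype labels. The 2 libraries labelled Dnmt1 KO held 8 and 9 Dnmt1 reads, a mean of 100.9 RPM against 70.2 RPM in WT, where libraries held 0 to 18 reads (1.12 on the log2 scale, SE 0.87, limma adjusted p = 0.558). With both enzymes targeted, 2 to 6 Dnmt1 reads remained per library. Dicer1 had 0 to 3 reads in a WT library and 0 to 1 in any knockout library, too few to compare, and fragments from outside a deleted part would check nothing. The miRNAs typical of ESCs, which Dicer produces, fell in 10 of 10 tested cases in Dicer/Dnmt1 KO against WT. Of all tested features 19.0% fell there, and of tested miRNAs outside the region 81 of 119. In Dnmt1 KO against WT 6.88% of all tested features were called, but none of the 10. Mir295, one of the 10, ran from 690.1 to 1939 RPM over the 4 Dicer/Dnmt1 KO libraries, under the lowest WT value of 5266 RPM and the lowest Dnmt1 KO value of 13391 RPM. Of all tested features 22.3% had every Dicer/Dnmt1 KO library below both Dnmt1 KO libraries.

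Rtl1 carried 1 read of its own over the 12 libraries. Counting did not separate the strands, and 6 annotated features lie inside Rtl1, namely the 5 miRNAs and Mir432, which had 0 reads in all 12 libraries. The reads of the Rtl1 feature equalled the sum of the reads of these miRNAs in 11 of 12 libraries. The exception was Dicer/Dnmt1 KO 1A with 58 against 57 reads, so the miRNAs inside Rtl1 accounted for 6410 of its 6411 reads. The Rtl1 values that follow are thus a sum over those miRNAs and say nothing on the level of the Rtl1 transcript.

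All 9 miRNAs were at or near 0 in WT ESCs. Together they had 24 reads over the 6 WT libraries, between 1 and 11 reads in a library, at 45.2 ± 46.2 RPM (SD, n = 6), or 29.4 ± 28.4 RPM (SD, n = 5) without WT 2A, where 2 reads were worth 123.9 RPM. In the Dnmt1 KO libraries A and B they had 2428 and 3401 reads, or 35875.8 and 31605.8 RPM. The Dicer/Dnmt1 KO libraries held 59 (1A), 11 (1B), 518 (2A) and 218 reads (2B) of them, or 2409, 1263, 8167 and 1447 RPM. The 3 groups did not overlap in this sum, with every Dicer/Dnmt1 KO library above every WT library and below both Dnmt1 KO libraries. Taken singly, 10.4% of all tested features had every Dicer/Dnmt1 KO library above every WT library. In 22.3% every Dicer/Dnmt1 KO library lay below both Dnmt1 KO libraries, and in 17.1% both Dnmt1 KO libraries lay above every WT library. Over the pooled reads, the level in Dnmt1 KO was 1057-fold that in WT (95% counting interval 709.5 to 1651), and the level in Dicer/Dnmt1 KO was 10.2-fold lower than in Dnmt1 KO (9.48 to 11), or 21.2-fold lower without library 2A. Dicer/Dnmt1 KO 2A stood highest of its group, and the mean of the group, 3321 ± 3269 RPM (SD, n = 4), became 1706 ± 616 RPM (SD, n = 3) without it.

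**Figure D2:**
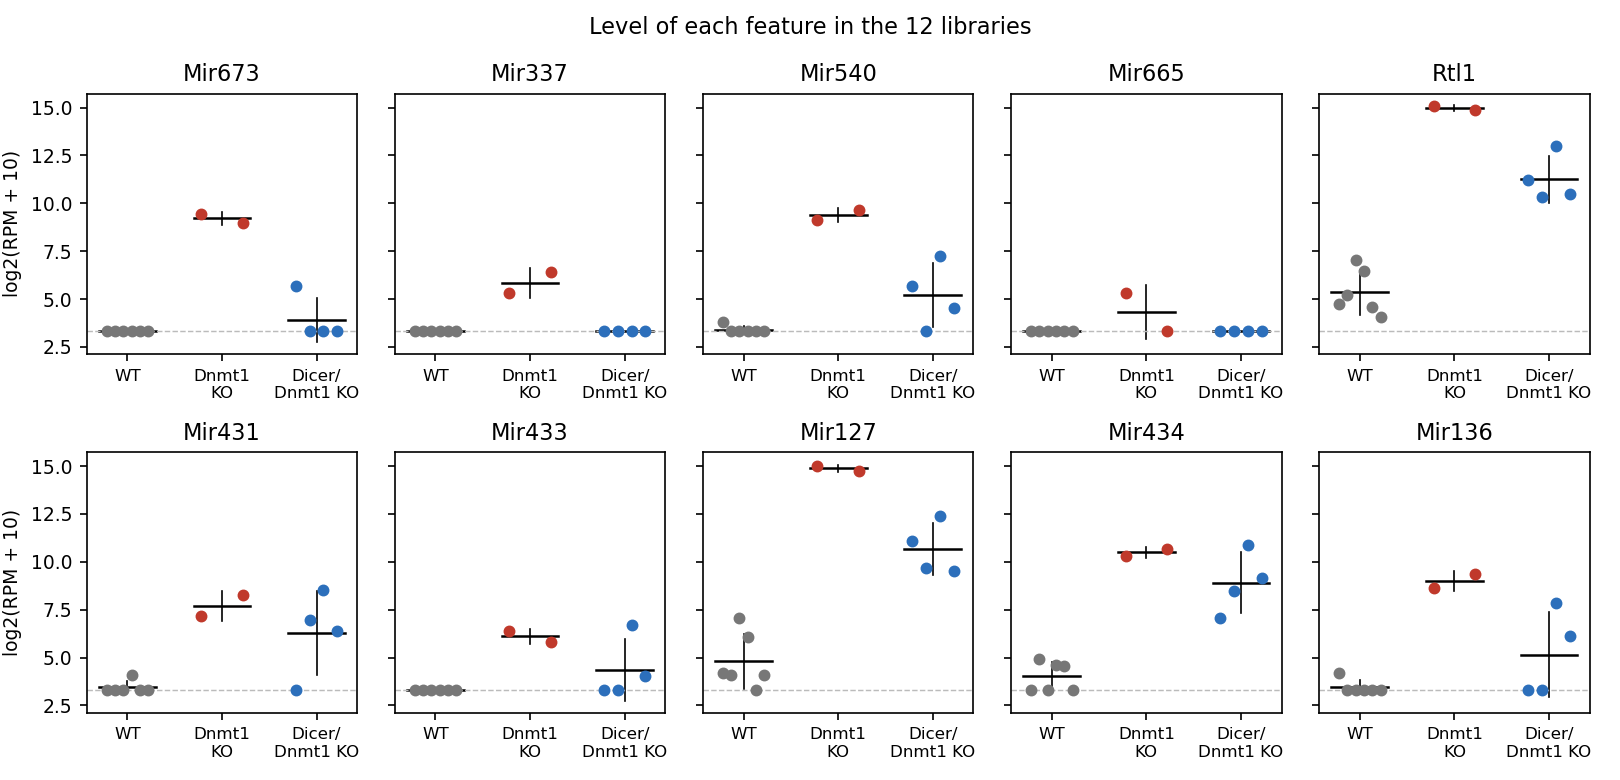
Level of each of the 10 features as log2(RPM + 10) on the vertical axis, by genotype on the horizontal axis. Points are libraries (6 WT, 2 Dnmt1 KO, 4 Dicer/Dnmt1 KO), bars the mean, vertical lines 1 SD, and the dashed line marks 0 reads. Mir127 and Rtl1 lie near 15 in Dnmt1 KO, while Mir337, Mir433 and Mir665 stay close to the dashed line in most libraries.

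The first comparison, Dnmt1 KO against WT, asked how these miRNAs differ once the enzyme that maintains DNA methylation is lost. Of the 10 features 7 passed the filter on low values, and 7 of these 7 rose in Dnmt1 KO, beside 6.88% called among all 683 tested features (6.59% higher and 0.293% lower). These features passed the filter through the knockout libraries, so this count is a description and no support on its own, and Rtl1 repeats its miRNAs. Fold changes are log2 values from limma on the log2(RPM + 10) scale after scaling by trimmed means, which understates the change of features with few reads. The median was 6.39 for the 7 features, or 6.87 with Mir673 taken at its bound against 0 WT reads, beside 0.13 for all tested features and 1.14 for tested miRNAs outside the region.

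Mir127, the most abundant of the antisense miRNAs, had 0 to 123.9 RPM in WT with a median of 7.55 RPM. It reached 32728.5 RPM in Dnmt1 KO A and 27591.1 RPM in Dnmt1 KO B. The WT maximum came from WT 2A, in which 2 reads were enough for that value. The log2 fold change was 10.23 (SE 1.15, limma adjusted p = 5.86e-05), and the pooled reads, 5184 against 14, gave a 1611-fold ratio (counting interval 959.3 to 2949).

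Mir434, the second in abundance, had 0 to 3 reads in a WT library and 85 and 177 reads in Dnmt1 KO A and B, or 1256 and 1645 RPM. Its log2 fold change was 6.87 (SE 0.90, limma adjusted p = 0.00015). Mir136, whose hairpin faces the start of the Rtl1 coding sequence, had 2 reads in WT 1A and 0 in the other WT libraries, against 26 and 71 reads in Dnmt1 KO (5.94, SE 0.94, limma adjusted p = 0.000813). Mir431, which faces the far end of that sequence, had 1 read over all WT libraries against 9 and 32 in Dnmt1 KO (4.63, SE 0.92, limma adjusted p = 0.00613). In each of these 3 miRNAs both Dnmt1 KO libraries lay above all 6 WT libraries, which was so for 17.1% of all tested features. The call of Mir431 rested on both Dnmt1 KO libraries, with an adjusted p of 0.0624 without A and 0.166 without B.

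Among the miRNAs between Meg3 and Rtl1, Mir673 had 0 reads in all 6 WT libraries and 47 and 53 reads in Dnmt1 KO A and B, or 694.5 and 492.5 RPM. Against the limit of 3 reads over the WT group this is at least 145-fold higher (limma adjusted p = 1.74e-05). Mir540 had 1 read in WT 1A, 0 in the other WT libraries, and 37 and 86 reads in Dnmt1 KO, and its log2 fold change was 6.39 (SE 0.73, limma adjusted p = 5.87e-05). For both miRNAs the Dnmt1 KO libraries lay above every WT library, as in 17.1% of all tested features. Both passed the filter only with the Dnmt1 KO libraries, so this separation is a description.

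Mir337, Mir433 and Mir665 did not pass the filter. Mir337 had 0 reads in WT and 2 and 8 reads in Dnmt1 KO, which is at least 14.5-fold higher over the pooled reads. Mir433 had 0 reads in WT and 5 and 5 in Dnmt1 KO, again at least 14.5-fold higher. Mir665 had 2 reads in Dnmt1 KO A and none elsewhere, so a difference was barely measurable at this depth (at least 2.90-fold). With no filter on low values, Mir337 and Mir433 were called in Dnmt1 KO against WT (limma adjusted p = 0.000425 and 0.000786) and Mir665 was not (0.275).

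The levels within Dnmt1 KO were far apart although the 9 miRNAs lie close together. Reads of Mir127 were 94.7% of the antisense reads in Dnmt1 KO A (95% Wilson interval 93.7 to 95.5) and 91.2% in Dnmt1 KO B (90.2 to 92.2). Mir434 followed with 3.63% and 5.44%, then Mir136 with 1.11% and 2.18%, Mir431 with 0.385% and 0.983%, and Mir433 with 0.214% and 0.154%. The order of the 5 was the same in both libraries. Mir673, the farthest from Rtl1, and Mir540 next to it in level had 593.5 ± 142.8 and 673.0 ± 178.5 RPM (SD, n = 2), a difference smaller than the spread between the libraries. They were followed in level by Mir136 at 522.0 ± 194.9 RPM, which also lay within that spread. These are shares of reads per hairpin, not corrected for hairpin length (82 to 124 bases).

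The second comparison, Dicer/Dnmt1 KO against WT, asked what remained above WT when Dicer was missing as well. Here 4 of the 7 tested features rose (Rtl1, Mir127, Mir434 and Mir431) and none fell, beside 24.2% called among all tested features (5.12% higher and 19.0% lower). The median over the 7 was 2.44, against -0.10 for all tested features and -3.35 for tested miRNAs outside the region, of which 8 of 119 rose and 81 fell. The knockout libraries again carried these features through the filter.

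Mir127 stood at 2204.9 (1A), 803.7 (1B), 5471 (2A) and 723.3 RPM (2B) in Dicer/Dnmt1 KO, all above the WT maximum of 123.9 RPM. The log2 fold change was 5.02 (SE 0.91, limma adjusted p = 0.000655). Mir434 stood at 122.5, 344.4, 1876 and 570.7 RPM in the same order, again above all WT libraries, of which the highest had 20.7 RPM. Of all tested features 10.4% had their Dicer/Dnmt1 KO libraries above all WT libraries. Its log2 fold change was 4.28 (SE 0.71, limma adjusted p = 0.000334), and the adjusted p over the other settings ran from 4.98e-05 to 0.0178. Mir431 had 0, 1, 23 and 11 reads, so Dicer/Dnmt1 KO 1A, with 0, overlapped WT. It rose by 2.44 on the log2 scale (SE 0.73, limma adjusted p = 0.0238), and lost the call without 1B, without 2A or without 2B (adjusted p 0.0528, 0.0872 and 0.0661), and when the culture was a random block (0.0728).

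Mir136 had 0, 0, 14 and 9 reads in Dicer/Dnmt1 KO, a fold change of 1.52 on the log2 scale (95% interval -0.07 to 3.12, limma adjusted p = 0.175). Mir540 had 1, 0, 9 and 2 reads (1.49, interval 0.25 to 2.73, limma adjusted p = 0.0799), and it was called without Dicer/Dnmt1 KO 1B (1.95, adjusted p = 0.0101). Mir673 had a single read, in Dicer/Dnmt1 KO 1A (limma adjusted p = 0.608). Mir337 and Mir665 had 0 reads in all 4 libraries, and Mir433 had 6 reads in 2A and 1 read in 2B. The miRNAs opposite Rtl1 thus gave 793 reads in Dicer/Dnmt1 KO and those between Meg3 and Rtl1 gave 13, of which 9 were Mir540 reads in library 2A.

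**Figure D3:**
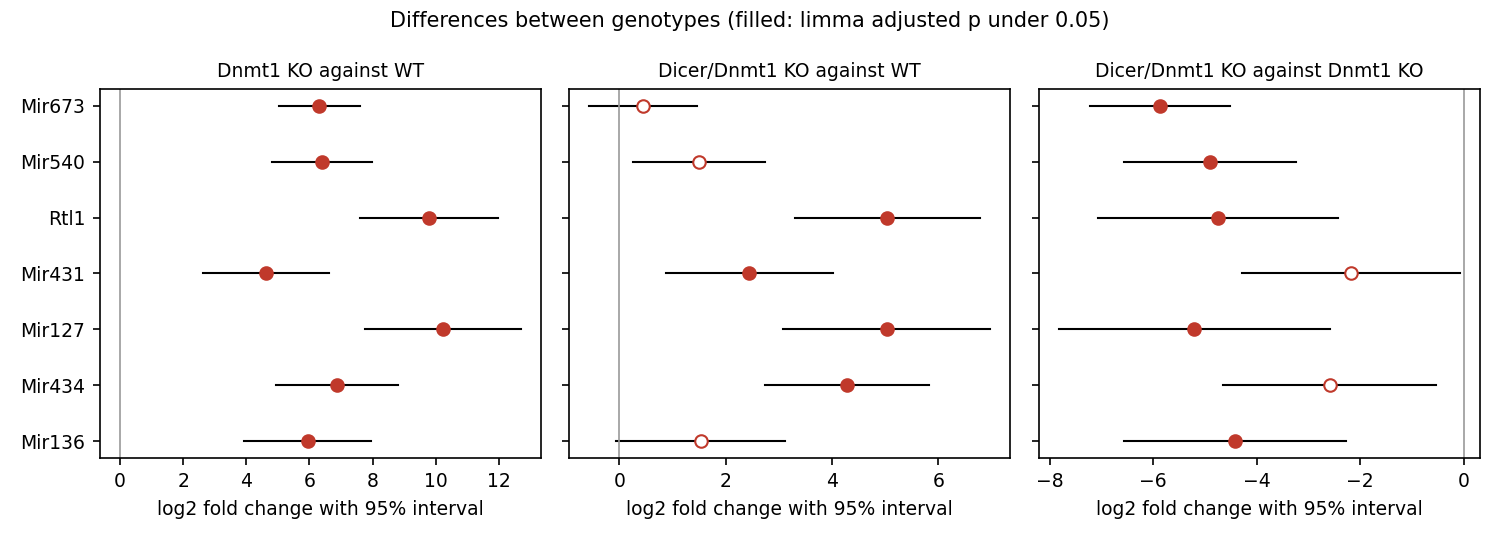
Log2 fold change on the horizontal axis for the 7 tested features on the vertical axis, in the 3 comparisons, with 95% intervals as lines and filled points where the limma adjusted p was under 0.05. Dnmt1 KO against WT has 7 filled points, Dicer/Dnmt1 KO against WT has 4 and Dicer/Dnmt1 KO against Dnmt1 KO has 5. Mir673 had no WT read, so its value against WT depends on the pseudocount. Any pair of these comparisons shares the libraries of 1 group.

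The third comparison, Dicer/Dnmt1 KO against Dnmt1 KO, set the libraries lacking both enzymes beside those lacking Dnmt1. Of the 7 tested features 5 fell (Mir673, Mir540, Rtl1, Mir127 and Mir136), beside 22.8% called among all tested features (21.7% lower and 1.17% higher), and the median was -4.74 against -0.16 for all tested features. The members passed the filter through the knockout libraries. Mir673, Mir540 and Mir136 did so only with the Dnmt1 KO libraries, the group in which they are high. This count too is thus a description and no support. Among tested miRNAs outside the region 87 of 119 fell, with a median of -4.08. Tested miRNAs elsewhere in the region numbered 7 of 40, and 7 of these fell, with a median of -5.05. These too passed the filter through the knockout libraries.

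Mir673 fell from 47 and 53 reads to 1, 0, 0 and 0 reads, a difference of -5.87 (SE 0.63, limma adjusted p = 1.52e-05). The ratio over the pooled reads, 100 against 1, was 141-fold lower with a counting interval of 24.8 to 5628. Mir540 fell by 4.90 (SE 0.77, limma adjusted p = 0.000243) and Mir136 by 4.42 (SE 0.99, limma adjusted p = 0.00368). For all 3 the highest Dicer/Dnmt1 KO library lay under the lower Dnmt1 KO library, which was so for 22.3% of all tested features. All 3 passed the filter only with the Dnmt1 KO libraries, so this separation and their adjusted p-values are a description. Mir337, which was not tested, had 10 reads in Dnmt1 KO and none in Dicer/Dnmt1 KO, at least 4.70-fold lower over the pooled reads, and with no filter it was called (limma adjusted p = 0.000766) while Mir433 was not (0.0951).

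Mir127 fell by 5.21 on the log2 scale (SE 1.21, limma adjusted p = 0.00479), with means of 30159.8 ± 3632.7 RPM (SD, n = 2) and 2301 ± 2220.2 RPM (SD, n = 4), the latter 1244 ± 833 RPM without library 2A (SD, n = 3). The pooled reads gave a 14.2-fold lower level (counting interval 12.9 to 15.5), or 32.0-fold without 2A (27.5 to 37.5). The change on the log2 scale was -4.20 when libraries were scaled by their reads alone (limma adjusted p = 0.00797). That scaling moved the median of all tested features by 0.91 in this comparison, by 0.70 in Dicer/Dnmt1 KO against WT and by -0.20 in Dnmt1 KO against WT, so that 84 features then rose and 116 fell in Dicer/Dnmt1 KO against WT, compared with 35 and 130. The direction of all 7 members was the same under each of the 4 other scalings tried, this one included. Without Dnmt1 KO A the Mir127 call was lost (adjusted p = 0.0554), and 3 of the 6 members then tested were called.

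Mir434 and Mir431 were not called in this comparison. Mir434 had 1256 and 1645 RPM in Dnmt1 KO, and Dicer/Dnmt1 KO 2A with 1876 RPM exceeded both, while 1A, 1B and 2B lay below. The difference was -2.59 (95% interval -4.65 to -0.53, limma adjusted p = 0.0747), and it was called without library 2A (-3.13, adjusted p = 0.0125). Mir431 had 133.0 and 297.4 RPM in Dnmt1 KO against 0, 114.8, 362.6 and 73.0 RPM in Dicer/Dnmt1 KO (-2.18, interval -4.29 to -0.08, limma adjusted p = 0.163). It too was called without 2A (-2.84, adjusted p = 0.0316). Over the pooled reads the levels were 1.75-fold lower for Mir434 (counting interval 1.46 to 2.11) and 1.65-fold lower for Mir431 (1.03 to 2.67), compared with 14.2-fold for Mir127 and 5.95-fold for Mir136 (3.75 to 9.83). Library 2A held 119 of 211 Mir434 reads and 23 of 35 Mir431 reads in Dicer/Dnmt1 KO, and without it these levels were 2.99-fold (2.35 to 3.83), 3.59-fold (1.85 to 7.49) and, for Mir136, 11.3-fold lower (5.72 to 25.5). The order of the falls is a description and was not tested here.

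The make-up of the antisense miRNAs was compared next, since it is free of scaling between libraries. Mir127 made up 94.7% of the antisense reads in Dicer/Dnmt1 KO 1A (Wilson interval 85.6 to 98.2), 63.6% in 1B (35.4 to 84.8), 68.2% in 2A (64.0 to 72.1) and 50.5% in 2B (43.8 to 57.1). Mir434 made up 5.26%, 27.3%, 23.4% and 39.8% of them. Libraries 1B, 2A and 2B, with 11, 509 and 216 antisense reads, thus had intervals for Mir127 below those of both Dnmt1 KO libraries, whereas that of 1A, with 57 reads, overlapped them. Per Mir127 read there were 0.0384 and 0.0596 Mir434 reads in the Dnmt1 KO libraries. In the order 1A, 1B, 2A and 2B there were 0.0556, 0.429, 0.343 and 0.789 in Dicer/Dnmt1 KO, so 1A fell among the Dnmt1 KO values. A two-sided exact permutation test over libraries gave p = 0.267 for the log2 of this ratio and p = 0.4 for the Mir127 share, and with 2 against 4 libraries no p under 0.133 was possible. After Benjamini-Hochberg adjustment over 4 such tests each p was 0.4.

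**Figure D4:**
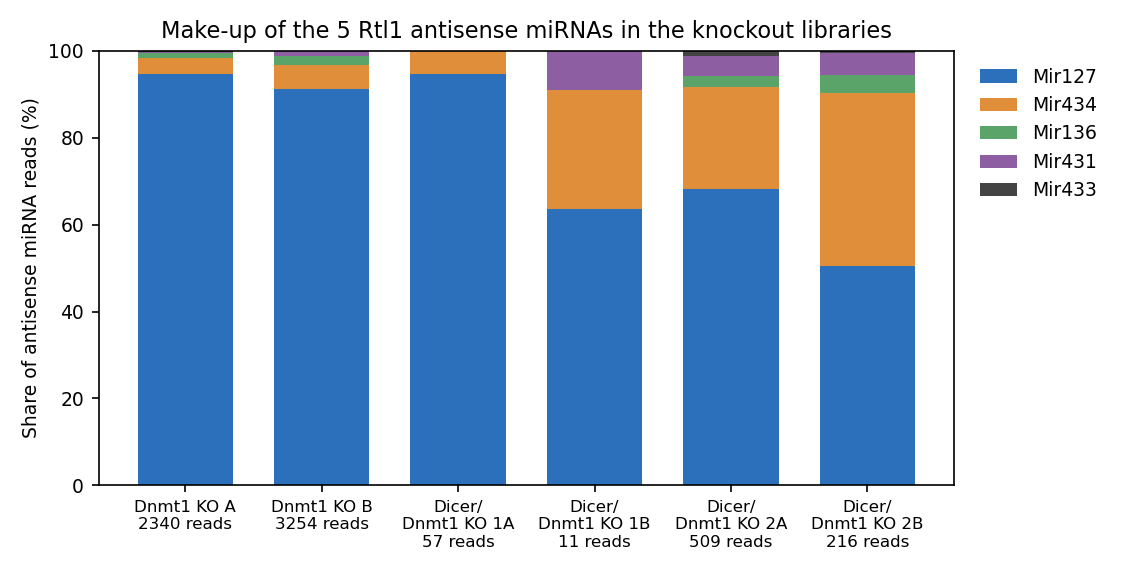
Share of the reads of the 5 Rtl1 antisense miRNAs, in percent on the vertical axis, taken by each miRNA in the 2 Dnmt1 KO and 4 Dicer/Dnmt1 KO libraries on the horizontal axis, with the number of antisense reads under each bar. Mir127 takes 91.2% or more in both Dnmt1 KO libraries and in Dicer/Dnmt1 KO 1A, and between 50.5% and 68.2% in the other Dicer/Dnmt1 KO libraries.

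As a share of all miRNA reads in the library, the 9 miRNAs made up 0.0019% to 0.0178% in WT and 5.48% and 5.04% in Dnmt1 KO. In Dicer/Dnmt1 KO they made up 2.01%, 1.89%, 7.97% and 2.03%, so library 2A lay above both Dnmt1 KO libraries and the other libraries lay below (exact permutation p = 0.4). Without 2A the Dicer/Dnmt1 KO mean moved from 3.47% ± 3.00 (SD, n = 4) to 1.98% ± 0.0740 (SD, n = 3). Every Dicer/Dnmt1 KO library lay above all WT libraries in this share. The share is no level, since the miRNA reads it is taken of were few without Dicer. They numbered 2942, 582, 6501 and 10747 in Dicer/Dnmt1 KO, against 44295 and 67461 in Dnmt1 KO. In RPM of the whole library, 2A lay below both Dnmt1 KO libraries, at 8167 against 35876 and 31606.

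Neighbours of the members served as a reference. Rian, a noncoding RNA of the same region that holds small nucleolar RNAs, had 0 to 2 reads in a WT library, 797.9 and 1162 RPM in Dnmt1 KO and 1837, 688.9, 1356 and 1241 RPM in Dicer/Dnmt1 KO. It rose in both comparisons with WT (6.66, SE 0.61, and 5.98, SE 0.48, limma adjusted p = 1.74e-05 and 7.77e-07) and was not called between the knockouts (-0.68, SE 0.65, limma adjusted p = 0.618). Per Rian read there were 45.0 and 27.2 reads of the 9 miRNAs in Dnmt1 KO, against 1.31, 1.83, 6.02 and 1.17 in Dicer/Dnmt1 KO. The groups did not overlap in this ratio (exact permutation p = 0.133, the smallest that 2 against 4 allows). Unlike those of Rtl1, the Rian reads were not split by the features inside it. Any miRNA reads counted there are thus part of this reference. Meg3 had at most 4 reads in a library, Dlk1 at most 1 read and Dio3 none. Mir770, Mir493 and 3 further annotated features among the members (AC152063.2, AC152063.3 and Gm17639) had 0 reads in all 12 libraries.

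Of the 40 other miRNAs of the region, 7 were tested. In Dnmt1 KO against WT 7 of 7 rose, beside 6.59% of all tested features. In Dicer/Dnmt1 KO against WT 4 of 7 rose, beside 5.12%. Even summed, the 40 reached at most 71.3 RPM in a WT library, under the filter of 111.3 RPM. The 7 thus passed it through the knockout libraries, and these counts are a description. By Pearson correlation of log2 levels over the 12 libraries, the features most like the summed members were Mir410 (0.98), Mirg (0.98), Mir411 (0.94), Mir143 (0.94) and Mir541 (0.92), out of 676 compared. Mirg contains Mir410 and Mir541 and so repeats their reads. These values are a description over libraries that share depth and genotype. Of the 5, only Mir143 lies outside the region, on another chromosome.

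**Figure D5:**
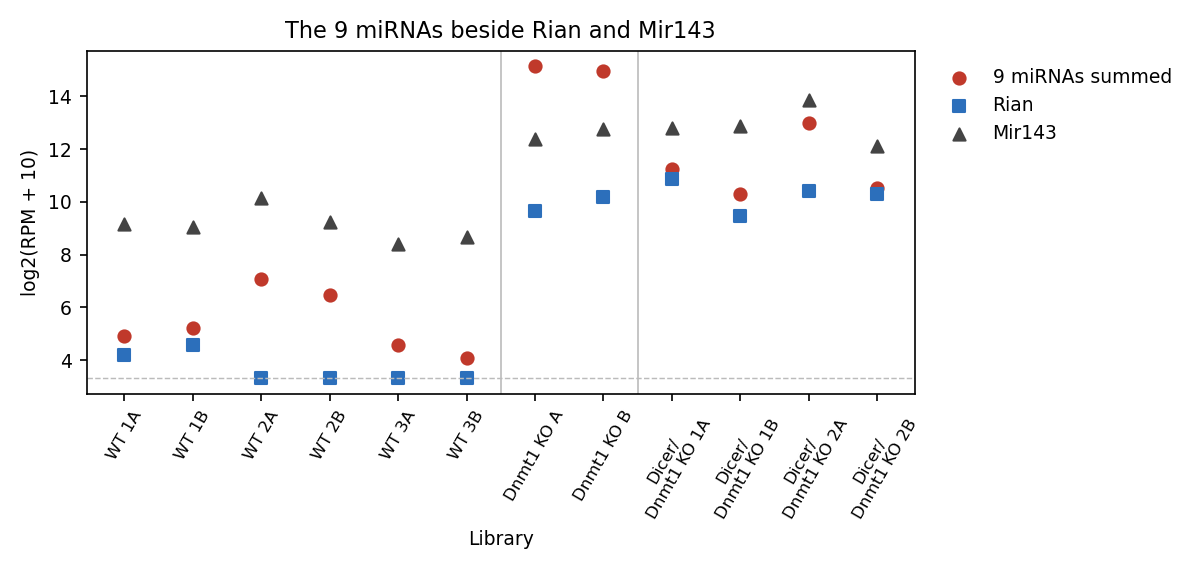
Level as log2(RPM + 10) on the vertical axis in each of the 12 libraries on the horizontal axis, for the sum of the 9 miRNAs (circles), Rian (squares) and Mir143 (triangles). Vertical lines part WT, Dnmt1 KO and Dicer/Dnmt1 KO, and the dashed line marks 0 reads. Rian is similar in both knockouts, whereas the 9 miRNAs are lower in Dicer/Dnmt1 KO.

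Mir143 is a miRNA known from smooth muscle and fibroblasts, cells that can be present where ESCs are kept on feeders. It stood at 332.6 to 1115 RPM in WT, 5319 and 6961 RPM in Dnmt1 KO, and 7186, 7463, 14883 and 4393 RPM in Dicer/Dnmt1 KO, and it rose in both comparisons with WT (3.63, SE 0.70, and 2.95, SE 0.55, limma adjusted p = 0.00506 and 0.0009). Of 11 listed feeder fibroblast miRNAs 10 were in the table and 5 were tested, of which 3 rose in Dnmt1 KO against WT (Mir143, Mir22 and Mir21), 1 rose in Dicer/Dnmt1 KO against WT (Mir143) and 2 fell in Dicer/Dnmt1 KO against Dnmt1 KO (Mir22 and Mir21). The summed level of the list ran from 9854 to 15470.2 RPM in WT, from 41313 to 49198 RPM in Dnmt1 KO and from 12535 to 40771 RPM in Dicer/Dnmt1 KO. Mean levels in WT, Dnmt1 KO and Dicer/Dnmt1 KO were 645.9, 1553 and 3769 RPM for Mir10a and 1349, 2030 and 1584 RPM for Mir10b. Neither was called in any comparison. The other listed miRNAs had few reads, with 0 for Mir199a-1 and 1 in all for Mir199a-2. In the same order of groups, summed reads were 1, 6 and 9 for Mir214, 4, 7 and 7 for Mir145, and 4, 7 and 5 for Mir152, with WT the deepest group. The list's summed level was highest in Dnmt1 KO, as that of the members was. In Dicer/Dnmt1 KO against WT the list's median was -0.34, beside 2.44 for the members and -3.35 for tested miRNAs outside the region. Over the libraries, Mir143, Mir10a, Mir22 and Mir21 correlated with the summed members at 0.94, 0.755, 0.59 and 0.53. The part of Mir143 and of the other feeder miRNAs in the results was not tested. Neural miRNAs had 0 reads in all libraries. Of 4 endoderm and liver miRNAs with a value, 1 was tested (Mir192), and it was called only as lower in Dicer/Dnmt1 KO, in both comparisons. In Dnmt1 KO against WT it was higher but not called (2.51, SE 1.08, limma adjusted p = 0.238). The summed level of this list ran from 180.2 to 1487 RPM in WT and from 1995 to 2165 RPM in Dnmt1 KO. In Dicer/Dnmt1 KO it was at most 40.8 RPM.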

How the data were processed

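Small RNA (20 to 24 nt) of 12 mouse ESC libraries was analysed. According to the submitters' processing notes and the paper's methods, reads were trimmed (Trim Galore 0.3.5), mapped to NCBIM37 (Bowtie2 2.2.6) and counted over annotated features in SeqMonk. The deposited values are log2 RPM relative to library reads, in which the authors' software gave features without reads 0.9 read. From them 100.0% of values came back as whole reads (tolerance 0.02 read). A further 89 columns of values could be tied to no sample and were left aside. All 32101 features matched the GENCODE annotation on NCBIM37. How reads with several positions were placed is not given in the sources used here.

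Features with at least 111.3 RPM (10 reads at the median depth) in 2 libraries and 15 reads in total were tested, 683 in all. Reads were scaled by trimmed means of log ratios (30% of ratios, 5% of abundances trimmed) and log2(RPM + 10) was fitted with limma 3.58.1 (R 4.3.3) over the 3 groups without covariates, with Benjamini-Hochberg adjustment over all tested features at 0.05. The script was tested on simulated data. A and B libraries differed beyond counting noise in 6 of 6 pairs and were kept as separate samples, although repeat libraries of 1 RNA can differ so too. The named features are the 10 members, their annotated neighbours and the 5 features most like them. Members and lists (ESC, feeder fibroblast, neural, endoderm and liver miRNAs, region neighbours) were chosen with earlier results of these data known. Alternatives covered scaling, filter, pseudocount, voom weights, pairing and each library left out.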

Additional observations from a re-analysis of the deposited data

Results flagged for a closer look

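In groups of 4 or more libraries, 9 values stood apart from their group by Dixon's criterion, out of 20 groups examined. Its chance rate of about 1 in 20 groups holds for normally distributed values, not for sparse counts. A group with reads in a single library is always flagged, as for each value of 1 or 2 reads below. The 9 flags therefore cannot be set against that rate. In Dicer/Dnmt1 KO, library 2A held the highest value of Rtl1 with 8025 RPM (509 reads, next library 2368 RPM), of the summed antisense miRNAs with 8025 RPM (next 2327 RPM), of all 9 miRNAs with 8167 RPM (next 2409 RPM) and of Mir433 with 94.6 RPM (6 reads, next 6.64 RPM). The first 3 of these are sums dominated by Mir127 and are not independent. Mir673 stood at 40.8 RPM in Dicer/Dnmt1 KO 1A, which is 1 read. In WT, Mir540 and the sum of the miRNAs between Meg3 and Rtl1 stood at 4.08 RPM in 1A (1 read), Mir136 at 8.16 RPM in 1A (2 reads) and Mir431 at 7.13 RPM in 2B (1 read).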

How the results depend on the processing

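No member reversed its direction under any alternative in which it was tested. The lowest value of Mir673 in Dicer/Dnmt1 KO against WT was 0.000, which has no direction. Settings in which a member did not pass the filter are not counted. Of 177, 178 and 177 member values in Dnmt1 KO against WT, Dicer/Dnmt1 KO against WT and Dicer/Dnmt1 KO against Dnmt1 KO, 174, 168 and 168 kept their side of the threshold, 3, 7 and 2 lost the call, and 0, 3 and 7 gained it. With A and B summed, 4 members passed the filter, and 3 were called in Dnmt1 KO against WT and 2 in Dicer/Dnmt1 KO against Dnmt1 KO, where the lone Dnmt1 KO sample is assumed to vary like the others. Leaving out 1 library gave 5 to 7, 3 to 4 and 3 to 7 called members, the last with 3 without Dnmt1 KO A and 7 without Dicer/Dnmt1 KO 2A. Without WT 2A and Dicer/Dnmt1 KO 1B, the shallowest libraries, the counts were 7, 4 and 5, but in Dicer/Dnmt1 KO against WT Mir431 lost the call (adjusted p = 0.0554) and Mir540 gained it (0.00876); this alternative was chosen after seeing the data, as was scaling over all features with reads. With the letter A or B as a replicate block the counts were 7, 4 and 5. With number and letter as a replicate block over the 8 libraries that share them, 3 of 4 tested members were called in Dicer/Dnmt1 KO against WT (Rtl1, Mir127 and Mir434), against 4 before. Same-numbered libraries of WT and Dicer/Dnmt1 KO correlated at -0.23, 0.11, -0.17 and -0.28 in their deviations from the group means. No pairing by number was seen, but counting noise in the shallow libraries could hide one. The number of called features over the whole table in Dnmt1 KO against WT ran from 12 with A and B summed to 181 without WT culture 2, beside 47. Depth limits Mir337, Mir433 and Mir665 most.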
